A study of Saccharomyces cerevisiae with 10 samples.

Results

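The features examined were the 316 transcription units that lie within 20 kb of the ends of the nuclear chromosomes of budding yeast (*S. cerevisiae*), out of 7041 features in the table used to choose them, of which 6986 are nuclear. A feature belonged when its locus started below position 20000 or ended within 20000 bp of the largest feature end on its chromosome. Of 341 features in that window, 25 were left out by the prefix of their gene names: 11 COS, 5 HXT, 3 ADH, 3 PHO, 2 ARN and 1 ENB. The other 6670 nuclear features served as the comparison in every table. The end features occupy all 32 chromosome arms, with 5 to 14 per arm (median 10). There are 134 with a gene name, 181 open reading frames (ORFs) without one, and 1 tRNA gene. Their median distance from the end was 9260 bp, 174 lie within 10 kb, and 97 overlap another feature.

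Chromosome ends in yeast are capped by telomeric repeats, and the adjoining subtelomeric DNA is packed into repressive chromatin by the Sir proteins, which are recruited through Rap1 and the Ku proteins. Genes placed there can be silenced, and the region also holds large families of nearly identical genes, many for sugar uptake, cell wall proteins or stress. The methyltransferase Set1 places methyl groups on lysine 4 of histone H3, a mark of active chromatin, and Jhd2 is the demethylase that removes them.

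The study compared cells lacking JHD2 with wild type, and cells overexpressing JHD2 with cells carrying an empty plasmid, to ask how nutrition bears on what this demethylase does. All strains are described as BY4742, a haploid laboratory background, and the study's strain list gives WT and jhd2Δ as prototrophic. The jhd2Δ strain (labelled jhd2_delta, a deletion of the whole gene) and WT (labelled wildtype) were grown in YAD (ammonium and glucose) and YGD (glutamate and glucose), with 3 replicate cultures per group, and in YAR (ammonium and raffinose), with 2 per group. Overexpression (OE) placed JHD2 on a plasmid under the strong constitutive ADH1 promoter in wild-type cells, and its reference in YAR was the same strain with an empty vector (EV), with 3 cultures per group. OE and EV in YAD, and EV in YAR against EV in YAD, were available as the authors' pooled group values only. RNA was depleted of rRNA and sequenced from stranded libraries with single-end reads of 51 bases.

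The deposited values are FPKM (fragments per kilobase of transcript, scaled to the reads mapped in a library). They do not show how many reads lie behind a value, so error here means the spread between cultures. Each table was normalised on its own, and no level was set beside one from another table in a test. The single contrast across tables, of the jhd2Δ effects in YGD and YAD, sets 2 within-table differences against each other. JHD2 was at 0 to 0.0486 FPKM in the jhd2Δ libraries of all 3 media, against 3.97 to 17.5 FPKM in WT, and at 1500 to 2210 FPKM in OE, against 27.6 to 35.8 FPKM in EV. The labels give jhd2Δ as Mat a and WT as Mat alpha in YAD and YGD, and the mating genes followed those labels, while the strain list gives both as MATα. STE2, an a-cell receptor gene, was at 771 to 810 FPKM in jhd2Δ and 6.47 to 7.80 FPKM in WT in YAD, so that the effect of jhd2Δ and of mating type cannot be told apart there. Both strains are labelled Mat a in YAR, and STE2 was at 503 to 626 FPKM in jhd2Δ and 410 to 522 FPKM in WT. OE and EV are labelled Mat alpha, yet STE2 spanned 35.2 to 206 FPKM in OE and 16.7 to 369 FPKM in EV, and the alpha-cell gene STE3 spanned 7.35 to 47.7 FPKM in OE and 4.97 to 156 FPKM in EV. EV replicate 3, with the lowest STE2 and the highest STE3, had correlations of 0.914 and 0.924 to its group. The counts and median of that comparison, and the SEO1 result, are given with and without it. WT replicate 3 in YGD also stood apart, at 0.944 to 0.948.

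The ends themselves are repetitive. In the R64 reference (RefSeq), 19 of 32 chromosome ends carry the telomeric repeat, in which runs of C are interrupted by single A bases, over at least 40 of their last 60 bases. The first 60 bases of 3 chromosomes are printed with the repeat in capitals, at chrI:1-60, chrII:1-60 and chrXI:1-60, to show a repeat end, an end without one and a second repeat end.
left end of chromosome I: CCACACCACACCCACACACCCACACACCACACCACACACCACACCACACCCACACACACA
left end of chromosome II: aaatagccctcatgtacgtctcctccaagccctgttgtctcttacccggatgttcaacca
left end of chromosome XI: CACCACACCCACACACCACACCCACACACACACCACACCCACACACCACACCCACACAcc
Inward of these, whole genes recur. HSP33 and HSP32, of the DJ-1 family of stress-related proteins, lie near the ends of chromosomes XV and XVI, and their coding sequences of 714 bases are 99.44% identical, with 4 differences. One 51-base window of each, as long as a read and starting at base 49 of the coding sequence (chrXV:1079160-1079210, minus strand, and chrXVI:11935-11985, plus strand), is printed with the 2 differing bases in capitals.
HSP33: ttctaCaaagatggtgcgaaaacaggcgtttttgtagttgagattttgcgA
HSP32: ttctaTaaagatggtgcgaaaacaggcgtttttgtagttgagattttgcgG
A read from a stretch that these genes share cannot be assigned to 1 of them. No 51-base window of HSP32, the printed one included, is found once in the genome.

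Sequence upstream of 3 end genes that results below turn on is printed from 250 bases before to 50 bases after the annotated start in R64. For SEO1, a putative permease, the printed stretch is chrI:8967-9266 (minus strand). HYR1, a thiol peroxidase that senses hydrogen peroxide, and GTT1, a glutathione transferase, are neighbours. Their printed stretches are chrIX:422878-423177 (plus strand) and chrIX:424464-424763 (minus strand). Capitals mark 4 motifs searched on both strands. TATAAA is a core promoter element and AGGGG the stress response element. TTAGTAA is a form of the site of Yap1, an oxidative stress activator, and GATAAG is a site of nitrogen-responsive factors.
SEO1 promoter: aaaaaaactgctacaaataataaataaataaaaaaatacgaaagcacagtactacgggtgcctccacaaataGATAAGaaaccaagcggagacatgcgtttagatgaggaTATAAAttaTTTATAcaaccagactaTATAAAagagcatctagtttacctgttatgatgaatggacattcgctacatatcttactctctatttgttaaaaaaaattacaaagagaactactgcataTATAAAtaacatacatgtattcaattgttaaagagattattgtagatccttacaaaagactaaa
HYR1 promoter: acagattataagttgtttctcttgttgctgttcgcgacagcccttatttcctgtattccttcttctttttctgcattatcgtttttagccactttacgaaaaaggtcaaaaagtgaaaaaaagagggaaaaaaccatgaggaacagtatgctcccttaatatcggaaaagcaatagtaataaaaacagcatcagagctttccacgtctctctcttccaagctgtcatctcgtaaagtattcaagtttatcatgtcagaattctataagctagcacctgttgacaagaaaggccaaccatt
GTT1 promoter: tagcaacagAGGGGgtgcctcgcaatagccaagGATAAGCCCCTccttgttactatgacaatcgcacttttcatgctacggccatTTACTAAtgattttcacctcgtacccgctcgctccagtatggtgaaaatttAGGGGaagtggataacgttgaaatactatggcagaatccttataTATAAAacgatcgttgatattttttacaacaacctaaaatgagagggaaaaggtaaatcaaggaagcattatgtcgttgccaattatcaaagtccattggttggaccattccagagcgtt
TATAAA or its reverse complement occurred in 55.1% of the 227 end features with such a window and in 45.2% of 6001 genes of the genome. AGGGG occurred in 19.4% of end features and 21.6% of all genes, TTAGTAA in 5.29% and 7.45%, and GATAAG in 16.3% and 14.7%. These letters are matches and not known sites.

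Many end features were not measurable, and this set how much of the region the comparisons could reach. In YAD, 90 of 316 (28.5%) were listed at 0 FPKM in every library, against 5.67% of other nuclear features. The share was 26.9% in YGD, 42.4% of the 304 end features present in the YAR table, and 26.6% in the OE and EV table, against 5.73%, 4.54% and 5.50% of the others. A value of exactly 0 can be a failed estimate and is not taken here as absence of RNA. Repetition moved with the zeros: of 69 end features in which no 51-base window is found once in the genome, 64 were at 0 in every YAD library, against 6 of 107 in which every window is found once. The median end feature had 49.6% of its windows found once. Short features stood out in the YAR table, where 8 of 9 end features under 150 bp were at 0 in every library, against 4 of 10 in YAD. The part of repetition and of length in these zeros was not tested.

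**Figure D1:**
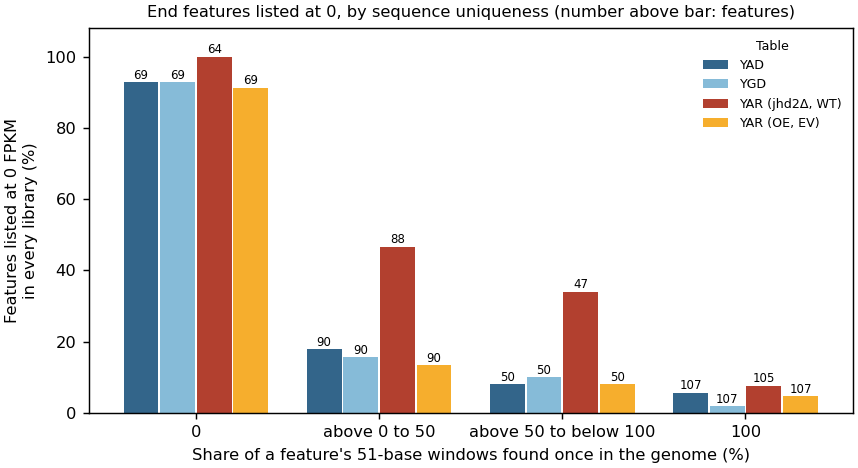
Share of end features listed at 0 FPKM in every library (y axis, %) by the share of a feature's 51-base windows found once in the genome (x axis, %), 1 bar per table, with the number of features above each bar. With no unique window, 91.3% to 100% were at 0, and with every window unique, 1.87% to 7.62%.

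The best known silent genes of the region fell in that class. HMLALPHA1 and HMLALPHA2, the silent copies of the alpha mating genes on the left arm of chromosome III, were listed at 0 in every library of all 4 tables, and no window of either is unique. Of the 8 YRF1 genes, which encode helicase-like proteins of the Y' elements, 6 were at 0 in every library in YAD, YGD and the OE and EV table and 7 in YAR. Of the 19 PAU genes, which encode seripauperin cell wall proteins, 12, 11, 15 and 9 were at 0 in every library of the YAD, YGD, YAR, and OE and EV tables. None of these families could be compared at a mean of 1 FPKM or more, except for 3 PAU genes in YGD and 1 in the OE and EV table.

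The end features had lower values than the others, also among those measurable. Between 44.1% (YAR) and 51.9% (OE and EV) had a mean of at least 1 FPKM, against 89.1% to 91.9% of other features. Their median over all members was 0.520 FPKM in YAD, against 12.1 FPKM for the others, and 0.324 FPKM in YAR, against 34.3 FPKM. Over those with a mean of at least 1 FPKM alone, the medians were 6.66 against 14.3 FPKM in YAD and 15.8 against 41.1 FPKM in YAR. The highest were unlike the rest. In YAR they were HXK1, a hexokinase, with 3540 and 3764 FPKM in jhd2Δ and 2853 and 2603 FPKM in WT, and YFR052C-A, which overlaps it, followed by MSC1, SUL1, the sulfate permease, and HYR1. In YAD they were DLD3, a lactate dehydrogenase, YEL073C and 3 ORFs of 75 to 105 bp. Of these ORFs, YDL247W-A and YBL107W-A hold no unique window, and all 3 were at 0 in every YAR library. LYS1, the last enzyme of lysine synthesis, joined them in YGD and in the OE and EV table.

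Of the 4 comparisons tested between groups, jhd2Δ against WT in YAR gave the most calls among end features. Of 134 tested, 26 were higher in jhd2Δ and 0 were lower (limma, adjusted p under 0.05 and a fold over 1.4), where 13.6% of all nuclear features tested were higher and 8.57% lower. The share of end features called higher was 19.4%, above that background, and the 0 called lower lay below it. This order was not kept with the replicate block, where 2 (1.49%) were called higher, against 1.99% of the other features. With no filter on low values it was kept by a narrow margin, at 11.4% against 10.5%. At an unadjusted p under 0.05, 46 were higher and 3 lower. The median log2 fold change of jhd2Δ over WT was 0.35 over the end features and -0.02 over the other features, and 95 of the 134 (70.9%) lay above 0, against 48.0% of the others. Both jhd2Δ libraries were above both WT libraries in 73 end features (54.5%, background 31.8%) and below both in 18 (13.4%, background 32.3%). The median over the end features, relative to the WT mean, was 0.38 and 0.34 in the jhd2Δ libraries and 0.06 and -0.06 in the WT libraries. The other features stayed between -0.02 and 0.02 in the same 4 libraries. Scaling the libraries to equal FPKM sums moved the median of the other features to -0.38 and that of the end features to 0.03. Then 9 end features were called higher (6.72%, against 6.10% of the others) and 17 of 134 lower (others 33.3%) (all nuclear features 355 and 1909, against 791 and 498), so the calls are relative to the other features. With WT replicate 1 left out 0 end features were called, against 1.52% of the others higher and 0.388% lower, and with WT replicate 2 left out 0, against 0.475% and 0.123% (limma). The median of the end features was then 0.44 and 0.26.

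**Figure D2:**
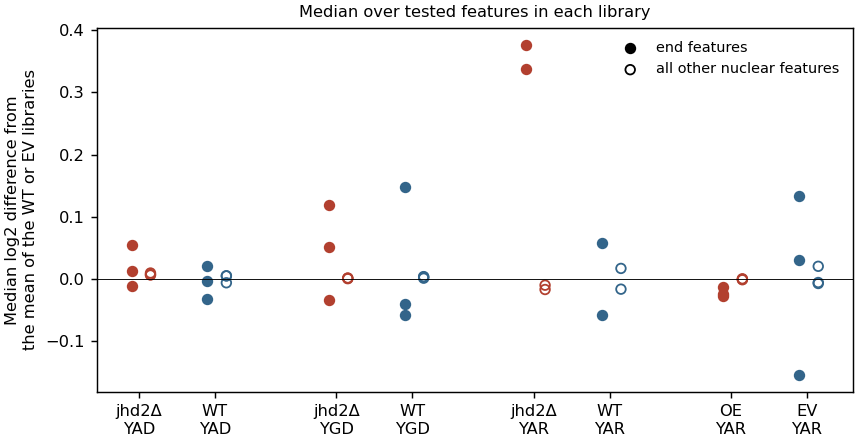
Median log2 value of each library relative to the mean of its WT or EV libraries (y axis), for end features (filled) and all other nuclear features (open), by group (x axis). In YAR the jhd2Δ libraries reached 0.38 and 0.34 for end features, while other features stayed near 0. In the other tables the end features lay between -0.15 and 0.15.

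The difference varied with distance from the end. Features at 0 to 5 kb had a median of 0.20 and 1 of 16 (6.25%) was called higher. Those at 5 to 10 kb had 0.48 with 8 of 29 (27.6%), and those at 10 to 15 kb 0.47 with 10 of 41 (24.4%). Those at 15 to 20 kb had 0.23 with 7 of 48 (14.6%). Outside the window the medians were 0.19 at 20 to 30 kb (20 of 126 called higher and 5 lower), 0.10 at 30 to 40 kb, -0.03 at 40 to 60 kb and -0.03 beyond. The shares called higher there were 15.9%, 13.6%, 16.2% and 13.1%, so only the bins at 5 to 15 kb had shares larger than every one of these. No test was made between the bins. The features nearest the boundary were PRE4 at 19650 bp (log2 fold change 0.23), SUL1 at 19665 bp (0.26) and YMR315W at 19953 bp (-0.29) inside, and PAD1 at 20081 bp (0.77), YMR31 at 20622 bp (0.52) and YDL241W at 20634 bp (-0.10) outside. The end features differed from the others at each level of expression: their median was 0.33 against -0.08 at 1 to 5 FPKM, 0.22 against -0.14 at 5 to 20 FPKM, 0.32 against -0.07 at 20 to 100 FPKM and 0.57 against 0.29 at 100 FPKM or more. The pattern was spread over the arms, with a median above 0 on 22 of 29 arms and a called feature on 18.

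**Figure D3:**
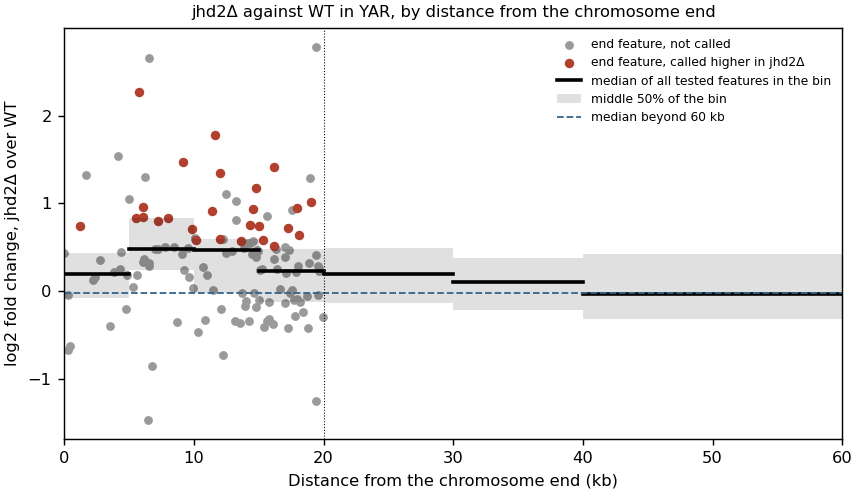
Log2 fold change of jhd2Δ over WT in YAR (y axis) against distance from the chromosome end in kb (x axis). Points are end features, red where called higher, black lines are bin medians with the middle 50% shaded (end features only within 20 kb), and the dashed line is the median beyond 60 kb. The bins at 5 to 15 kb are highest, at 0.48 and 0.47, and YMR315W-A and YNL338W, uncalled, are the highest points at 2.78 and 2.66.

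HYR1, the peroxide sensor, had 375 and 268 FPKM in jhd2Δ and 176 and 156 FPKM in WT, with no overlap (log2 fold change 0.93, SE 0.21, adjusted p = 0.006). HYR1 has 3 called neighbours on the right arm of chromosome IX, the most on any arm: GTT1 (245.5 and 189 FPKM in jhd2Δ, 151 and 139 FPKM in WT, log2 fold change 0.57), IRC24 (0.58) and YPS6, a putative aspartic protease of the cell wall (0.84). GTT1 and IRC24 were chosen after their values were seen. IRC24 overlaps YIR036W-A by 231 bp. HSP33 had 8.02 and 2.86 FPKM in jhd2Δ and 0.460 and 1.00 FPKM in WT (log2 fold change 1.79, adjusted p = 0.015). Its jhd2Δ libraries differed from each other by more than its WT libraries did, and only 23.9% of its windows are unique. HSP32 was at 0 in all 4 libraries, but it has no unique window, so this value does not show absence of RNA.

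AAD6 is a pseudogene of the aryl-alcohol dehydrogenase family, and it had 36.2 and 34.7 FPKM in jhd2Δ and 15.6 and 14.6 FPKM in WT, each group tight and apart from the other (log2 fold change 1.18, SE 0.18, adjusted p = 0.000309). AAD16 (chrVI:14305-14763) and AAD6 (chrVI:14793-15431) are neighbours, so their calls may not be independent. Of 7 aryl-alcohol family members tested, 3 were higher in jhd2Δ (AAD6, AAD16 with 0.75 and AAD3 with 0.75). Above 0 lay 5 of the 7, beside 70.9% of all end features tested. With equal FPKM sums 1 was called higher and 2 lower. ERG13, which makes HMG-CoA for sterol synthesis, had 142 and 141 FPKM in jhd2Δ and 82.1 and 58.8 FPKM in WT (log2 fold change 1.01, adjusted p = 0.002). IMD2, an IMP dehydrogenase of GTP synthesis, had 31.2 and 34.3 FPKM in jhd2Δ and 20.8 and 12.7 FPKM in WT (0.96, adjusted p = 0.008). SNZ3, of vitamin B6 synthesis, had 9.31 and 7.26 FPKM in jhd2Δ and 4.24 and 3.54 FPKM in WT (0.92, adjusted p = 0.027), and only 23.1% of its windows are unique. In all 3 enzymes both jhd2Δ libraries were above both WT libraries, as in every end feature called higher.

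Membrane transporters on a list of 15 lay on 1 side of 0, where 70.9% of all end features tested also lay (median 0.35). The list does not hold every transporter of the region: MAL31, ARR3 and PCA1 are not on it. Of the 15, 10 were tested and 3 were higher in jhd2Δ (19.4% of end features). All 10 lay above 0 and the median was 0.46. With equal FPKM sums 0 were called, 8 lay above 0 and the median was 0.15. MMP1, the S-methylmethionine permease, had 176 and 292 FPKM in jhd2Δ and 129 and 105 FPKM in WT (log2 fold change 0.95, SE 0.24, adjusted p = 0.019). SEO1 had 26.8 and 39.5 FPKM in jhd2Δ and 18.9 and 17.7 FPKM in WT (0.80, SE 0.20, adjusted p = 0.012). The third was SGE1, a multidrug transporter (0.60, adjusted p = 0.029), which overlaps YPR197C by 428 bp. Of the 6 alpha-glucoside genes tested, which serve maltose uptake and cleavage, 0 were called. All 6 lay above 0 (median 0.46, all end features 0.35), and 5 did with equal FPKM sums (0.12, all end features 0.03). ARR2, the arsenate reductase, was called (14.1 and 16.3 FPKM in jhd2Δ, 8.05 and 8.10 FPKM in WT, 0.83), and the other arsenic genes were not.

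YBL109W, an ORF without a gene name, had the largest fold change of the 26. It had 7.06 and 8.49 FPKM in jhd2Δ and 0 and 2.29 FPKM in WT, so the WT libraries differed from each other (log2 fold change 2.27, SE 0.54, adjusted p = 0.020). Other such ORFs were called too. YGL258W-A had 45.7 and 27.0 FPKM in jhd2Δ and 9.75 and 14.9 FPKM in WT (1.47, adjusted p = 0.017). YMR316C-B had 55.1 and 65.8 FPKM in jhd2Δ and 19.5 and 24.5 FPKM in WT (1.42), and overlaps YMR317W by 266 bp. YAL064W-B had 14.2 and 26.5 FPKM in jhd2Δ and 6.61 and 7.49 FPKM in WT (1.35, adjusted p = 0.006). In all 4 the groups did not overlap, as in all 26. Among features below the largest 12, chosen after their values were seen, PCA1, a cadmium-exporting pump, had 30.2 and 38.4 FPKM in jhd2Δ and 21.9 and 18.2 FPKM in WT (0.74). YOL159C had 51.4 and 44.7 FPKM in jhd2Δ and 32.3 and 25.6 FPKM in WT (0.72). FDC1, a decarboxylase of aromatic acids, had 70.7 and 58.3 FPKM in jhd2Δ and 45.1 and 37.3 FPKM in WT (0.63). The remaining calls ran from 0.52 (RPN12, a proteasome subunit) to 0.83 (YKR104W). Over all 26, the median length was 809 bp and the median distance 12040 bp. All windows were unique in 17 of them, and 3 overlapped another feature.

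Not every abundant or related gene moved. MSC1 had 1214 and 723 FPKM in jhd2Δ and 684 and 926 FPKM in WT, which overlap. LYS1 had 19.5 and 35.9 FPKM in jhd2Δ and 34.3 and 21.2 FPKM in WT, which overlap too. HXK1 had no overlap between groups but was not called (log2 fold change 0.42, adjusted p = 0.20). Of the 5 vitamin B1 and B6 genes tested 3 lay above 0 (median 0.82), but only SNZ3 was called. SNO3, its divergent neighbour, was at 5.41 and 5.23 FPKM in jhd2Δ and 6.81 and 8.80 FPKM in WT (-0.47, adjusted p = 0.22). AAD10 (-0.14) and AAD14 (-0.38), uncalled, had values on the other side of 0 from AAD6. MAL33 had 95.3 and 97.8 FPKM in jhd2Δ and 72.4 and 64.1 FPKM in WT (0.50, adjusted p = 0.052), just outside the threshold.

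**Figure D4:**
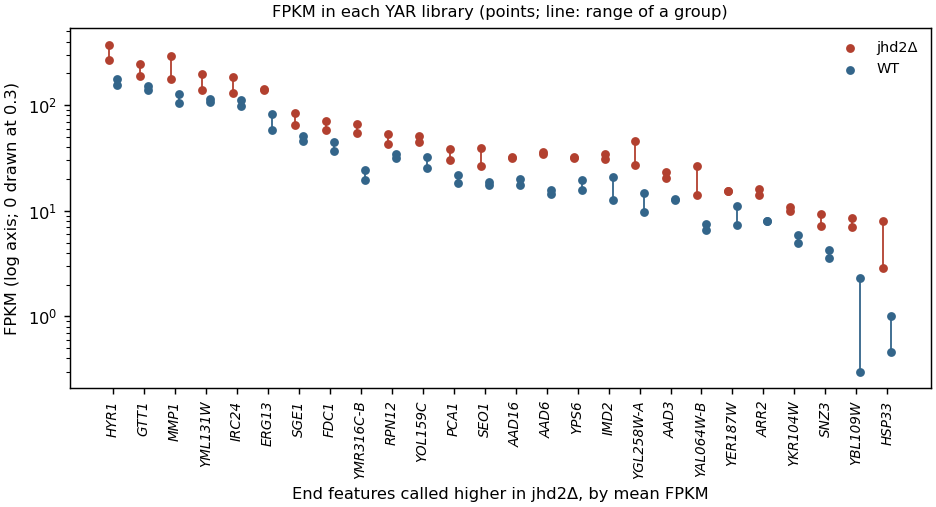
FPKM (log axis, 0 drawn at 0.3) of the 26 end features called higher in jhd2Δ in YAR, ordered by mean FPKM, with red points for the 2 jhd2Δ libraries and blue points for the 2 WT libraries. HYR1 is highest at 375 FPKM. In every feature both red points lie above both blue points, but the features were chosen as called higher in these same libraries.

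Of 21 genes on a list of factors linked to silencing, wherever they lie, 6 lay above 0 in YAR with a median of -0.17. The list mixes Sir proteins with SET1, an acetyltransferase and a histone variant, so its median gives no direction of silencing. Of the 21, 2 were called higher and 2 lower, beside backgrounds of 13.6% and 8.57%. HTZ1, a variant of histone H2A, (log2 fold change 1.36) and SAS2, a histone acetyltransferase (0.70), were higher in jhd2Δ, and TUP1, a corepressor (-0.66), and SET1 (-0.52) were lower. With equal FPKM sums 1 was called higher and 9 lower. None of SIR2, SIR3 and SIR4 was called. In promoters of 22 of the called end features, TATAAA occurred in 54.5%, close to the 55.1% of all end features.

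In YAD the end features did not move as a group. Of 142 tested, 5 were higher in jhd2Δ (3.52%, background 1.64) and 2 lower (1.41%, background 4.07), and their median was 0.00, against 0.01 for the others. SEO1 had 4.21, 4.80 and 6.58 FPKM in jhd2Δ and 2.11, 3.47 and 2.61 FPKM in WT, without overlap (log2 fold change 0.77, SE 0.18, adjusted p = 0.045). ARR3, the arsenite exporter (0.68), and ARR2 (0.63) were also higher, as were YIR042C (0.56) and YOL159C-A (0.50). DLD3 had 140, 153 and 168 FPKM in jhd2Δ and 282, 199 and 228 FPKM in WT (-0.55, adjusted p = 0.027). PRE4, a proteasome subunit, had 26.0, 33.7 and 35.3 FPKM in jhd2Δ and 47.0, 52.0 and 49.7 FPKM in WT (-0.59, adjusted p = 0.020). All jhd2Δ libraries were above all WT libraries in 22 end features (15.5%, background 17.5) and below them in 20 (14.1%, background 18.2). At an unadjusted p under 0.05, 20 were higher and 19 lower. Of the 8 listed transporters tested, 1 (SEO1) was called and 5 lay above 0, beside 50.7% of all end features tested. With equal FPKM sums 2 end features were called higher and 6 lower (all nuclear features 45 and 418, against 101 and 250).

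In YGD 0 of 152 end features were called in either direction (limma, background 0.178% higher and 0.146% lower), and 9 higher and 2 lower reached an unadjusted p under 0.05. The median was 0.02, against 0.00 for the others. All jhd2Δ libraries were above all WT libraries in 8 end features (5.26%, background 7.66) and below them in 6 (3.95%, background 7.41). Of 10 listed transporters tested, 8 lay above 0 (median 0.17), beside 54.6% of all end features tested, and 0 were called. SEO1 had 22.3, 16.6 and 16.5 FPKM in jhd2Δ and 14.0, 8.92 and 8.44 FPKM in WT, apart in all libraries, but was not called (log2 fold change 0.57, adjusted p = 0.73). Each effect was taken against the WT of its own table. Of the difference between the jhd2Δ effects in YGD and YAD, 0 of 137 end features were called (background 0.0493% higher and 0% lower), with 5 higher and 6 lower at an unadjusted p under 0.05. Of the 26 features higher in YAR, 10 of 23 tested lay above 0 in YAD and 9 of 22 in YGD. The differences between the YAR effect and those in the other media were not tested, and the mating type labelled for WT differs between them.

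Overexpression of JHD2 in YAR gave 0 calls among 164 end features (limma, background 0.0159% higher and 0% lower), and 13 higher and 15 lower at an unadjusted p under 0.05. The median was -0.03, against -0.01 for the others. All OE libraries were above all EV libraries in 21 end features (12.8%, background 11.1) and below them in 21 (12.8%, background 12.1). Without EV replicate 3, and without replicate 3 of both groups, the count was again 0, with medians of 0.03 and 0.03. Without EV replicate 2 it was 7 higher (AGP3, SEO1, ERO1, YAR068W, MMP1, RMD6 and AAD6) and 2 lower (HXK1 and SRY1) of 165, and the calls among the other features also grew, to 112 higher (1.83%) and 95 lower (1.55%). Transporters had some of the largest differences, and they are named here after their values were seen. SEO1 had 61.3, 83.6 and 86.2 FPKM in OE and 15.4, 28.6 and 19.7 FPKM in EV (log2 fold change 1.71, SE 0.27, adjusted p = 0.23). AGP3, an amino acid transporter, had 28.2, 37.1 and 35.3 FPKM in OE and 6.33, 13.9 and 7.78 FPKM in EV (1.67, SE 0.27, adjusted p = 0.23). MMP1 had 244, 273 and 304 FPKM in OE and 91.3, 162 and 101 FPKM in EV (1.11, adjusted p = 0.28). In all 3 the groups did not overlap, and with EV replicate 3 left out SEO1 was at 1.75 (adjusted p = 0.22). RMD6, of unknown function, had 26.5, 25.6 and 30.7 FPKM in OE and 9.41 to 13.5 FPKM in EV (1.03, adjusted p = 0.23). LYS1 had 402, 523 and 452 FPKM in OE and 212, 313 and 224 FPKM in EV (0.76, adjusted p = 0.29). HXK1 had 189, 199 and 188 FPKM in OE and 526, 161 and 688 FPKM in EV, and its OE values fall inside the wide range of EV (-1.15, adjusted p = 0.40). SRY1 had 13.7, 13.9 and 11.7 FPKM in OE and 16.2 to 25.4 FPKM in EV (-0.70, adjusted p = 0.29). Without EV replicate 2, which had the lowest HXK1 of the EV libraries, HXK1 was at -1.83 (adjusted p = 0.028). All 11 listed transporters tested lay above 0 in OE (median 0.47), beside 46.3% of all end features tested (median -0.03). With equal FPKM sums all 11 did too (median 0.70, all end features 0.18).

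**Figure D5:**
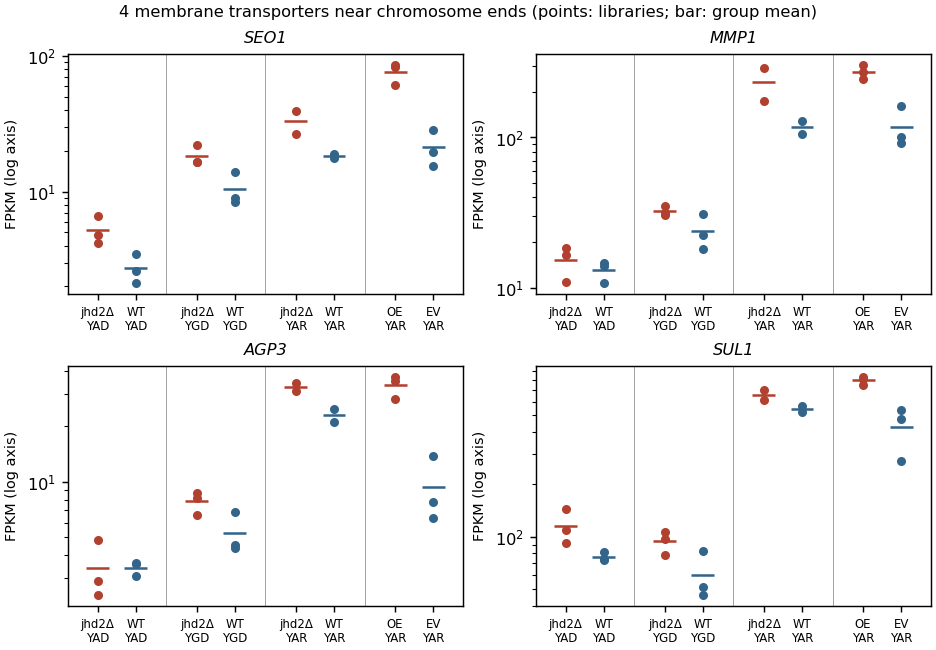
FPKM (log axis) of SEO1, MMP1, AGP3 and SUL1 in every library of the 4 tables, with bars at group means and each jhd2Δ or OE group left of its WT or EV group. SEO1 libraries of jhd2Δ and OE lie above those of WT and EV in all 4 tables, reaching 86.2 FPKM in OE and 28.6 FPKM in EV.

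The change of carbon source was read from the authors' pooled group values, without a test and without rescaling the groups. Most end features and most other features were lower in YAR, but a larger share of the end features was higher. A shift common to all features cannot be told apart here from the scale of the pooled values. Of 153 with a level of at least 1 FPKM, 26 were at least 1.4-fold higher in EV cells in YAR than in YAD (17.0%, background 6.63) and 85 lower (55.6%, background 67.2). Their median log2 fold change was -0.56, against -0.78 for the others. MAL33, the activator of the maltose genes, was at 53.6 FPKM in EV in YAR and 4.45 FPKM in EV in YAD, and MAL31, the maltose permease, at 15.3 FPKM in YAR and 2.99 FPKM in YAD. IMD2 was lower, at 5.25 FPKM in YAR and 116 FPKM in YAD, and so was DLD3, at 51.1 FPKM in YAR and 570 FPKM in YAD. HXK1 was at 288 FPKM in YAR and 72.8 FPKM in YAD, and SEO1 at 14.0 FPKM in YAR and 4.28 FPKM in YAD. Of 145 end features with values for OE and EV in YAD, 12 were at least 1.4-fold higher in OE (8.28%, background 1.97) and 18 lower (12.4%, background 6.64), and SEO1 was at 6.41 FPKM in OE and 3.84 FPKM in EV.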

How the data were processed

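The deposited FPKM values were made by the authors with Cufflinks 2.1.1, guided by SGD annotation, from TopHat2 2.0.12 and Bowtie2 2.1.0 alignments to a genome build given as 3.1, after FastQC 0.10.1. Starts of 6040 of 6045 IDs matched in RefSeq equal those of R64. The strand setting of counting: not given in the sources used here. Deposited p-values and fold changes of the authors' own comparisons were not used. Another 6 columns, in a sheet for OE in YAD, were not used because all 7041 features were identical to the YAR sheet. Groups came from sample titles, and each sample stands for its replicate cultures.

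Fold changes come from limma 3.58.1 in R 4.3.3 (trend and robust options, two-sided) on log2(FPKM × library scale + 1), for features with a mean of at least 1 FPKM. Library scales are medians of ratios. Rows that the authors' software marked as too deep to quantify (1 in YAD, 2 in YGD, 23 in YAR and 1 in the OE and EV table) were left out. Fold changes on this scale understate the change of low features. Adjustment was Benjamini-Hochberg over all features of a table, and calls needed an adjusted p under 0.05 and a fold over 1.4. FPKM are printed as deposited. Depth is unknown. The script was tested on simulated data. Members and gene lists were chosen with earlier results of these data known. Named features are the 12 called with the largest change in each direction, list members, the silent mating genes and the 5 of highest mean per table, apart from exceptions stated. Alternatives were pseudocount, filter, library scale, replicate block, each replicate left out, the window and repeated families. A uniqueness filter and leaving out both replicates 3 were added after seeing the data.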

Additional observations from a re-analysis of the deposited data

How the results depend on the processing

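In YAR the 26 end features higher and 0 lower in jhd2Δ became 9 and 17 with equal FPKM sums (others 6.10% and 33.3%), 2 higher with the replicate block (1.49%, others 1.99%), and 9 higher of the 45 tested within 10 kb (others 13.5%). With a mean of at least 5 FPKM 1 was lower. Leaving out 1 library at a time gave 0 to 24 higher and 0 to 4 lower, with 0 higher without either WT library (others 1.52% and 0.475%). The median of 0.35 was 0.24 with no filter, 0.0315 with equal FPKM sums and 0.26 to 0.44 with 1 library left out. With at least 90% unique windows, 19 of 99 were higher.

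In YAD the 5 higher became 8 with a pseudocount of 0.1, 3 with a mean of at least 5 FPKM, 2 as deposited, 2 with equal FPKM sums and 2 with the replicate block. The 2 lower became 6 with equal sums, 1 with the block and 0 within 10 kb. With 1 library left out 0 to 6 were higher and 1 to 3 lower. The median was 0.0369 with a mean of at least 5 FPKM, -0.047 as deposited, -0.0966 with equal sums, 0.0594 within 10 kb and -0.0132 to 0.0565 with 1 library left out. In YGD 1 was lower with no filter and 0 to 1 with 1 library left out, and the median was 0.22 as deposited, 0.15 with equal sums and -0.02 to 0.10 with 1 left out. In OE against EV the median was 0.0838 as deposited, 0.18 with equal sums and -0.09 to 0.03 with 1 left out, which gave 0 to 7 higher and 0 to 2 lower. The cause of these shifts was not tested. Replicate numbers did not pair the samples (correlations of deviations from -0.11 to 0.17), and the block gave 0 calls in YGD and in OE against EV. No single call changed direction. Depth is unknown.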
